A study of Mus musculus with 2 samples.

Results

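Mesenchymal cells of the pancreatic islet, that is pericytes, stellate cells and fibroblasts, were taken from single-cell transcriptomes of mouse islets by the transcripts each barcode carried. A barcode was chosen if at least 3 of the 7 mesenchymal genes Rgs5, Acta2, Tagln, Dcn, Col1a1, Col3a1 and Pdgfrb had 1 or more unique molecular identifiers (UMIs, each standing for 1 captured RNA molecule). It also needed 1500 UMIs, 500 genes and no more than 15% mitochondrial UMIs. Insulin transcripts (Ins1 and Ins2 together) had to stay under 20% of its UMIs, Gcg under 5%, Sst under 3% and Ppy under 10%, and the endothelial genes Pecam1 and Cdh5 had to be at 0. This left 297 cells of 21729 kept barcodes. The values of these genes chose the cells, so their levels are given as a description, without a test.

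Pericytes are contractile cells wrapped around capillaries. In the islet, where the capillary bed is dense, they are known to set local blood flow, to deposit basement membrane and to supply factors that β cells respond to. Stellate cells store vitamin A when at rest and can turn into matrix-producing, Acta2-positive cells, whereas fibroblasts produce and organise the fibrillar collagens of the interstitium. Rgs5 dampens G protein signalling and Acta2 is smooth muscle actin, and both mark the contractile cells. Decorin (Dcn) and type I collagen (Col1a1) mark the fibroblasts.

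The cells came from C57BL/6J mice aged 13 weeks, which either ate a high-fat diet (HFD, 1 library) or belonged to a group labelled CD (1 library), a name that the labels do not spell out. The diet series served as a prediabetes model in which subpopulations of α, β and δ cells were sought. The labels do not say how many mice went into each. Islets were released with collagenase, purified on a gradient, picked by hand and dispersed, and droplet libraries of mRNA 3′ ends were sequenced. With 1 library per diet no test between diets was possible, and all values describe these libraries and not the diets. The intervals given here are exact 95% intervals that cover counting error only.

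The HFD library held 271527648 UMIs and the CD library 265836346. The 184 mesenchymal cells of the HFD library had a median of 2490.5 UMIs (1609 to 5431) and 1223.5 genes, and the 113 cells of the CD library had 2549 UMIs (1579 to 4428) and 1270 genes. Their median mitochondrial share was 7.54% in HFD and 4.64% in CD. Insulin transcripts, which these cells are not known to make, took a median of 6.64% of UMIs in HFD and 5.24% in CD. Free RNA from lysed cells was estimated to supply 16.4% of the cells' UMIs in HFD and 14.4% in CD. The libraries shared no barcode among these cells, and 3 HFD cells and 0 CD cells had doublet scores high enough to be marked. They were kept.

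The label was checked against cell type markers. Of 22 mesenchymal markers, which include the 7 genes of the choice, 1 was at 0 in HFD cells and 0 were at 0 in CD cells. Their summed UMIs made up between 1.45% and 5.72% of a cell's UMIs in HFD, with a median of 2.64%, and between 1.06% and 6.55% in CD, with a median of 2.47%. In no cell did the markers of another non-endocrine class reach as many UMIs as the mesenchymal ones. All 6 mast cell markers and all 6 adipocyte markers were at 0 in both libraries. Endothelial markers had 128 UMIs over the HFD cells and 45 over the CD cells, of which Eng, a TGF-β co-receptor that pericytes can also express, held 82 in HFD and 33 in CD. Acinar markers summed to 168 counts per 1000000 UMIs summed over the cells (CPM) in HFD and 570 CPM in CD.

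The choice of at least 3 markers put 49 HFD and 39 CD cells just inside the limit, with exactly 3 markers and a median of 34 and 37 UMIs on the 7 genes. Just outside it, with exactly 2 markers, were 13 HFD and 22 CD barcodes with medians of 18 and 35.5 such UMIs. Of these, Dcn was present in 3 of the HFD and 9 of the CD barcodes.

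Mesenchymal cells made up 1.53% of 12062 kept HFD barcodes (interval 1.31 to 1.76) and 1.17% of 9667 kept CD barcodes (0.964 to 1.40). The difference was 0.357 percentage points (0.041 to 0.668). It turned to -0.235 points when cells needed less than 5% insulin transcripts, a limit below the median insulin share of both libraries (6.64% in HFD cells and 5.24% in CD cells), so the direction rests on the insulin limit. Shares of sampled barcodes depend on how the tissue was digested and on the mix of the other cells, and the part of either was not tested.

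Each cell was placed between a contractile and a fibroblast end by its UMIs on 4 genes, with c the share of Rgs5 and Acta2 among Rgs5, Acta2, Dcn and Col1a1. Cells with c of at least 0.8 were called contractile and cells with c of at most 0.2 fibroblast. The contractile end held 158 of 184 HFD cells (85.9%, 80.0 to 90.6) and 94 of 113 CD cells (83.2%, 74.995 to 89.6). The fibroblast end held 21 HFD cells (11.4%, 7.21 to 16.9) and 16 CD cells (14.2%, 8.32 to 21.97). Only 5 HFD and 3 CD cells lay between, and 7 HFD and 1 CD cells lay near a limit. The share of contractile cells differed by 2.68 points between HFD and CD (-5.99 to 12.1), an interval that spans 0.

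**Figure D1:**
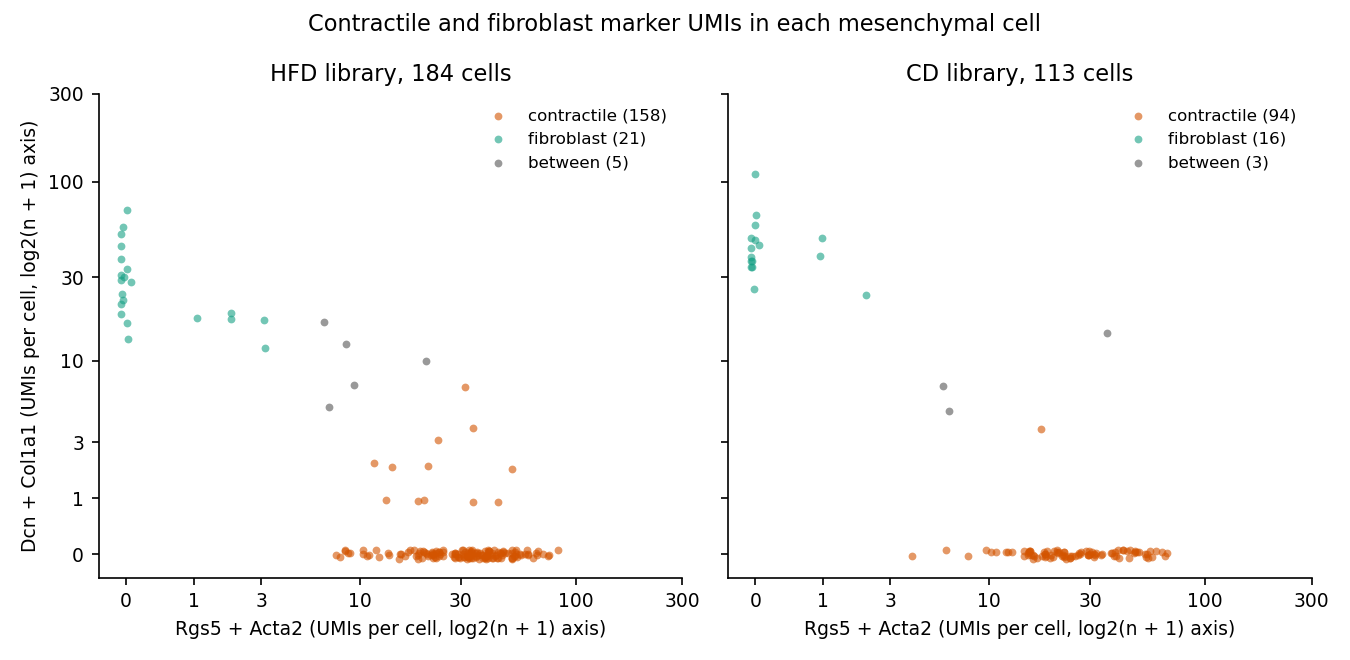
UMIs per cell on Rgs5 and Acta2 (x axis) against UMIs on Dcn and Col1a1 (y axis), both on log2(n + 1) axes with a small random offset, for 184 HFD cells (left) and 113 CD cells (right); each point is 1 cell, coloured by end. Most cells lie along one axis or the other: 146 HFD and 93 CD cells had no Dcn or Col1a1 UMI, and 16 HFD and 13 CD cells had no Rgs5 or Acta2 UMI.

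The split between the ends was close to complete in the genes that define it. Rgs5 was seen in 157 of 158 contractile HFD cells and 93 of 94 contractile CD cells, at a median of 102 UMIs per 10000 in HFD (0 to 278) and 64.3 in CD (0 to 202). At the fibroblast end Rgs5 was seen in 3 HFD and 3 CD cells. Dcn was seen in all 21 HFD and all 16 CD fibroblast cells, at a median of 85.4 UMIs per 10000 in HFD (16.6 to 179) and 130 in CD (66.9 to 297). Insulin-rich cells of the same libraries were thinned to 1500 UMIs from medians of 24004 UMIs in HFD and 26640 in CD. Rgs5 was then seen in 0.452% of 7530 HFD and 0.181% of 6628 CD insulin-rich cells. The thinned shares at the contractile end were 99.4% and 96.8%, a description only, since Rgs5 helped to choose and place these cells. Insulin-rich cells hold more UMIs than mesenchymal cells, so free RNA can take a smaller share of theirs. The insulin-rich shares given here and below may therefore understate it.

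Genes that took no part in the placement followed the same split. Of 1794 genes with at least 50 UMIs at the higher end, 527 (29.4%) were at least 2-fold higher at the contractile end in both libraries and 73 (4.07%) at least 2-fold higher at the fibroblast end. With each count of 0 raised to the 3 UMIs it allows, these counts were 459 and 73. The contractile cells held 412768 UMIs in HFD and 232998 in CD, and the fibroblast cells 58427 in HFD and 46401 in CD. A limit of 50 UMIs thus asks for a higher level at the fibroblast end. The part of these unequal sums in the unequal counts was not tested. The clearest genes of each end were ranked by the interval bound nearest to a ratio of 1.

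Of the 12 leading genes of the contractile end, several belong to the actomyosin machinery or to vascular signalling. Myl9, the regulatory light chain of smooth muscle myosin, had 2352 CPM at the contractile end and 49.1 at the fibroblast end in HFD, and 2642 and 76.0 in CD, which is 47.9-fold and 34.8-fold higher (log2 intervals 4.03 to 7.86 and 3.76 to 7.001, from 3 and 4 UMIs at the fibroblast end). Myh11, the smooth muscle myosin heavy chain, had 812 CPM in contractile HFD cells and 1283 in contractile CD cells and no UMI at the fibroblast end of either library, so it was at least 16.5-fold and at least 22.5-fold higher. Tagln, an actin-binding protein and one of the 7 genes of the choice, had 2588 CPM and 131 CPM at the ends in HFD, and 3414 CPM against 0 UMIs in CD. Tropomyosin 1 (Tpm1), which controls the access of myosin to actin, was 18.0-fold higher in HFD and 31.5-fold higher in CD.

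Several other leading genes of the contractile end encode receptors and signalling proteins. The endothelin B receptor Ednrb was 60.6-fold higher in HFD, where 1 UMI stood at the fibroblast end (log2 interval 3.43 to 11.23), and at least 18.6-fold higher in CD. Rgs4, which like Rgs5 shortens G protein signals, had 179 HFD and 126 CD UMIs at the contractile end and 0 at the other. Id1, a target of BMP signalling, was 54.2-fold and 56.4-fold higher, against 1 UMI at the fibroblast end of each library (log2 intervals 3.27 to 11.07 and 3.32 to 11.13). Epas1, the hypoxia-inducible factor HIF-2α, was 21.9-fold higher in HFD and at least 12.3-fold higher in CD. Casq2, a calcium store protein of the sarcoplasmic reticulum, was at least 11.0-fold and at least 8.26-fold higher. Higd1b, a pericyte marker, the surface protein Tm4sf1 and the junction protein Esam completed the 12 genes.

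Promoter sequences of 3 genes that set the contractile end apart are shown, since serum response factor is known to drive smooth muscle genes through CArG boxes. Each run is the 250 bases before the annotated start on the gene's own strand, from the RefSeq table for GRCm38.p6. The gene coordinates used elsewhere here have other starts for Acta2 (34255590) and Myl9 (156775420), so the distances hold for the RefSeq starts only. By those coordinates both Acta2 boxes lie inside the gene. Capitals mark a CArG box, that is CC, 6 bases of A or T and GG, or the same with 1 C or G among the 6. The class is its own reverse complement, so both strands are covered. The Acta2 run (chr19:34255374-34255623, minus strand) holds boxes with 1 mismatch at 84 to 75 bases (CCCTATATGG) and at 34 to 25 bases (CCTTGTTTGG) before the start. The Myl9 run (chr2:156775214-156775463, plus strand) holds the consensus at 161 to 152 bases (CCTAATAAGG) and a box with 1 mismatch at 99 to 90 bases (CCTTGTAAGG). The Rgs5 run (chr1:169655251-169655500, plus strand) holds none.
Acta2: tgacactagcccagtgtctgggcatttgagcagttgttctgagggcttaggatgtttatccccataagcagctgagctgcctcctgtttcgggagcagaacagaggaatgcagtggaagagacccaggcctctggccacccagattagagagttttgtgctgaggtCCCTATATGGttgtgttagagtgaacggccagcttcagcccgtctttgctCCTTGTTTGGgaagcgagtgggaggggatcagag
Myl9: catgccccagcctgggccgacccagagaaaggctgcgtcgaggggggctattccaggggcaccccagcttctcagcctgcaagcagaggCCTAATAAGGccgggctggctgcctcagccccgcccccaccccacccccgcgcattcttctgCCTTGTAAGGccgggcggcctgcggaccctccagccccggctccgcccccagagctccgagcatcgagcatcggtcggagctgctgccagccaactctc
Rgs5: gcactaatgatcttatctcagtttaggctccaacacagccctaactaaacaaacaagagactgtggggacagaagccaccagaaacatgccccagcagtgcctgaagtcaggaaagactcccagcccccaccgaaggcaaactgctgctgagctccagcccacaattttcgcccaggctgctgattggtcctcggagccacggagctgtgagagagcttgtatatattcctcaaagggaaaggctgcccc
Of 32851 promoters of this length, 482 (1.47%) hold the consensus and 2380 (7.24%) a box with 1 mismatch. The same window of Cnn1, Pln, Tpm1, Casq2, Lmod1, Des and Mylk held neither. Tagln and Myh11 were not searched. A match describes these letters and not a bound site.

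Of the 12 leading genes of the fibroblast end, several encode matrix proteins or secreted factors. Lumican (Lum), which spaces collagen fibrils, had 0 UMIs in contractile cells of both libraries, against 2144 CPM in fibroblast HFD cells and 1329 CPM in fibroblast CD cells, so at the fibroblast end it was at least 257-fold and at least 99.8-fold higher. Fibulin 1 (Fbln1) had 1 HFD and 0 CD UMIs at the contractile end against 54 and 65 at the fibroblast end. Pleiotrophin (Ptn), a heparin-binding growth factor, was at least 236-fold and at least 57.0-fold higher. The dipeptidase Dpep1 was at least 76.5-fold and at least 121-fold higher, and Gdf10, a TGF-β family ligand, 188-fold and 148-fold higher, against 2 UMIs at the contractile end of each library. Apolipoprotein E (Apoe), which carries lipid, had 97.3 CPM at the contractile end and 6579 CPM at the fibroblast end in HFD, and 40.0 CPM against 17336 CPM in CD. Serpinf1, Htra3, Cilp, Igfbp6, the complement gene C4b and the enkephalin precursor Penk completed the 12 genes of this end.

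**Figure D2:**
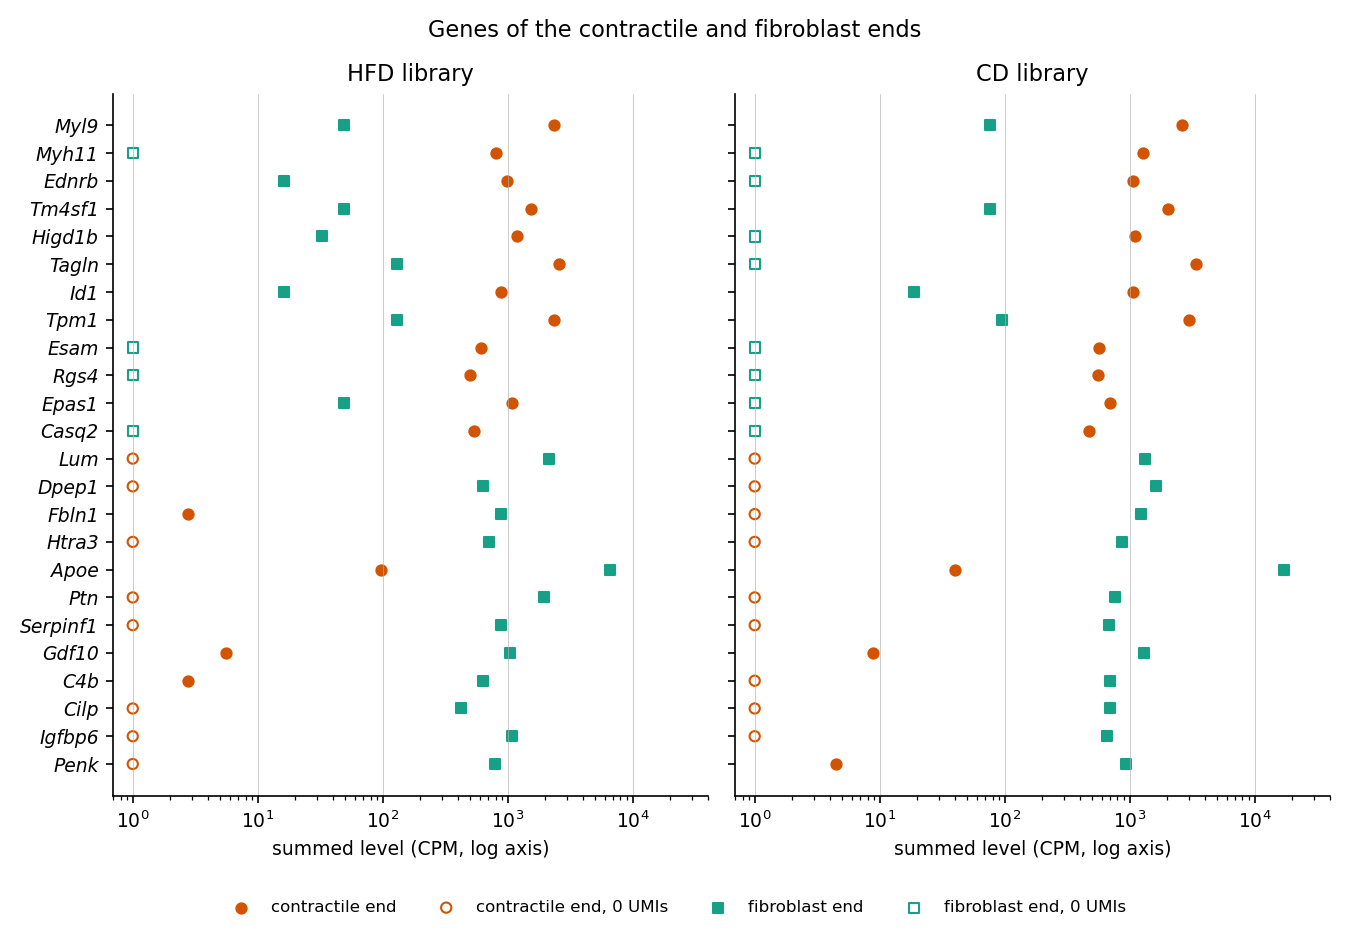
Summed level (CPM, log axis) of the 12 leading genes of the contractile end and the 12 of the fibroblast end in HFD cells (left) and CD cells (right); circles are contractile cells, squares fibroblast cells, and open symbols at the left edge mark 0 UMIs. Every gene shown keeps its side in both libraries, from Myl9 (2352 against 49.1 CPM in HFD) to Lum (0 UMIs against 2144 CPM in HFD).

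The wider gene lists divided along the same line. The contractile apparatus list still holds Tagln, and the pericyte and PDGF lists hold Pdgfrb. Both are genes of the choice, which can partly set their side, and counts without them were not made. Of the contractile apparatus 15 of 20 measured genes passed the 2-fold limit toward the contractile end and 0 toward the other, with a median log2 ratio of 2.14 in HFD and 2.86 in CD, beside 0.81 in both over all measured genes (counts of 0 set to the 3 UMIs they allow). Of the pericyte genes it was 19 of 23, among them the chondroitin sulphate proteoglycan Cspg4 (317 CPM in HFD and 231 in CD, 0 UMIs at the fibroblast end) and the potassium channel subunit Abcc9. The pericyte list had 1 gene toward the fibroblast end, vitronectin (Vtn), with 520 CPM in contractile and 1162 CPM in fibroblast cells in HFD, and 369 and 2127 CPM in CD. Of vascular tone genes, which include both endothelin receptors and the nitric oxide receptor subunits Gucy1a1 and Gucy1b1, 13 of 16 passed. So did 8 of 9 genes of PDGF, Notch and angiopoietin signalling, among them Notch3, which pericytes are known to depend on (692 CPM and 81.8 CPM in HFD, 537 CPM and 94.9 CPM in CD). Of all measured genes 29.4% passed toward the contractile end and 4.07% toward the other. Of heat shock chaperones 7 of 11 passed toward the contractile end and 0 toward the other. Immediate early and dissociation genes, with 7 of 26 against 2, stood near the shares of all measured genes.

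Toward the fibroblast end passed 15 of 16 fibroblast genes, 7 of 11 fibrillar matrix genes and 7 of 10 genes of inflammation and complement. Of all measured genes 4.07% did. The fibroblast and fibrillar matrix counts include Col3a1, a gene of the choice, which can partly set its side. Of the fibrillar matrix, 1 gene, Loxl2, passed toward the contractile end, with 225 CPM in contractile and 65.5 CPM in fibroblast cells in HFD, and 71.0 CPM against 0 UMIs in CD. Complement C3 had 0 UMIs in contractile cells, against 606 CPM in fibroblast HFD cells and 608 CPM in fibroblast CD cells. Basement membrane genes were shared: 1 of 6, Nid1, passed toward the fibroblast end and 0 toward the other. Of the 7 measured stellate cell genes, 3 passed toward the contractile and 1 toward the fibroblast end, so this list marked neither end. The ribosomal genes (0 of 79), the mitochondrially encoded genes (0 of 13) and the antigen presentation and interferon genes (0 of 9) passed in neither direction.

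Levels were scaled anew for each comparison, so a gene's CPM can differ from that given for the ends. Between HFD and CD, 1446 genes had at least 50 UMIs over all mesenchymal cells of the higher library. Of these, 167 (11.5%) were at least 1.5-fold higher in HFD and 63 (4.36%) at least 1.5-fold lower, with a median log2 ratio of 0.07. The cells held 482275 UMIs in HFD and 287711 in CD. A limit of 50 UMIs thus asks for a higher level in CD, here and in each set of cells below. Without a filter the counts were 3797 higher and 3306 lower. The part of the unequal sums in the unequal counts was not tested. Scaling by total counts in place of the TMM factors gave 118 higher and 103 lower genes and moved the median by -0.118, to -0.05. Among contractile cells alone 163 of 1190 genes (13.7%) were higher and 48 (4.03%) lower, and among fibroblast cells alone 34 of 169 genes (20.1%) were higher and 21 (12.4%) lower.

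The contractile cells differed between the libraries in the balance of Rgs5 (chr1:169655501-169695813, plus strand, GRCm38) and Acta2 (chr19:34241090-34255590, minus strand). Rgs5 had 11540 CPM in contractile HFD cells and 6697 CPM in contractile CD cells (log2 ratio 0.79, 0.70 to 0.87). Acta2 had 2065 CPM in HFD and 4383 CPM in CD (-1.09, -1.22 to -0.95). The median cell had 13.3 Acta2 UMIs per 10000 in HFD (0 to 123) and 31.6 in CD (0 to 223), and the ranges overlap over most of their length. Rgs5 took at least 0.8 of the Rgs5 and Acta2 UMIs in 116 of 158 HFD cells (73.4%, 65.8 to 80.1) and in 36 of 94 CD cells (38.3%, 28.5 to 48.9), a difference of 35.1 points (22.1 to 47.0). Cells with more Acta2 than Rgs5 UMIs numbered 12 in HFD (7.59%) and 25 in CD (26.6%).

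**Figure D3:**
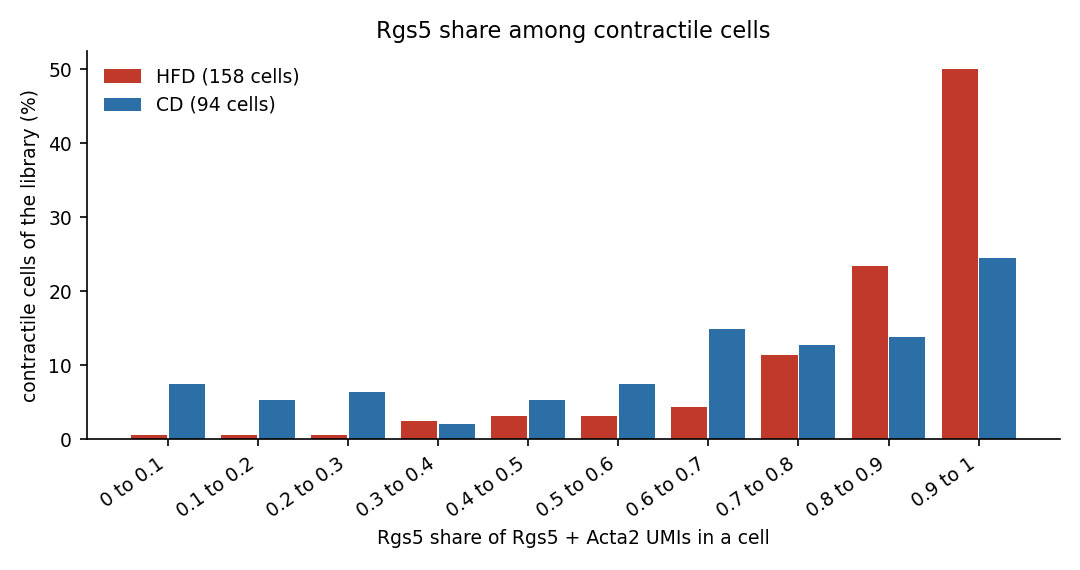
Share of the contractile cells of a library (y axis, percent) by the share of Rgs5 among the Rgs5 and Acta2 UMIs of a cell (x axis, in steps of 0.1), for 158 HFD cells (left bar of each pair) and 94 CD cells (right bar). The uppermost step holds 79 of 158 HFD cells and 23 of 94 CD cells, and the 3 lowest steps hold 1 HFD cell each and 7, 5 and 6 CD cells.

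Phospholamban (Pln, chr10:53337667-53345987, plus strand), which restrains the calcium pump of the sarcoplasmic reticulum and is known in vascular smooth muscle, had the lowest log2 ratio of the named genes over all mesenchymal cells (-3.87). It had 15.3 CPM in contractile HFD cells and 232 CPM in contractile CD cells (log2 ratio -3.92, -5.43 to -2.71), with 6 and 57 UMIs. Pln was seen in 2 of 158 HFD cells (1.27%, 0.154 to 4.50) and in 19 of 94 CD cells (20.2%, 12.6 to 29.8). With every cell thinned to 1500 UMIs it was seen in 2 HFD cells and 16 CD cells (17.0%), at median depths before thinning of 2502.5 and 2411 UMIs. Insulin-rich cells thinned in the same way carried it in 0.0133% in HFD and in 0 of 6628 cells in CD, which allows a share of up to 0.0453%. In the 19 CD cells with Pln, Acta2 had a median of 110 UMIs per 10000 (18.1 to 223) and Rgs5 21.4, against 21.8 for Acta2 and 75.8 for Rgs5 in the 75 CD cells without it. The 2 HFD cells with Pln had 78.9 and 99.04 Acta2 UMIs per 10000, against a median of 13.0 in the other 156.

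Part of the difference in Acta2 lay in these cells. They had high Acta2 and lay mostly in CD, so leaving them out lowers Acta2 in CD more than in HFD. Pln was picked after its difference between the libraries was seen, so values without these cells are a description. Without them the contractile cells had 1973 CPM of Acta2 in HFD and 2758 CPM in CD (-0.48, -0.65 to -0.32). Of the contractile apparatus list, 28 genes, 19 were measured over all mesenchymal cells, of which 1 (Actn1) was higher and 3 (Acta2, Myh11 and Pln) lower in HFD, with a median log2 ratio of -0.25 beside 0.07 over all genes. Over all measured genes 11.5% were higher and 4.36% lower. Without the cells that carried Pln, 160 of 1164 genes (13.7%) were higher and 25 (2.15%) lower, and the list's median in contractile cells was 0.15 beside 0.13 over all genes. In cells with an Rgs5 share of at least 0.8 it was 0.41 beside 0.27, with 173 of 831 genes (20.8%) higher and 10 (1.2%) lower. Within those cells Tagln had 1765 CPM in HFD and 932 CPM in CD (0.92, 0.59 to 1.27), whereas over all contractile cells it had 2376 CPM in HFD and 3132 CPM in CD (-0.40, -0.54 to -0.26). Acta2 itself turned to 0.39 there. Picking cells by their Rgs5 share bounds Acta2 and can bound genes that go with it, and Acta2 and Tagln are also genes of the choice, so the values in these cells are a description. Without the genes of the choice the list's median was -0.24 over all mesenchymal cells (1 of 17 higher and 2 lower) and 0.41 in the cells with a high Rgs5 share (2 of 14 higher and 0 lower).

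Most pericyte genes differed less between the libraries than Rgs5, a gene of the choice. Of 26 listed, 21 were measured and 4 were higher in HFD (Rgs5, Abcc9, Steap4 and Art3) and 0 lower, beside 11.5% and 4.36% of all measured genes, with a median of 0.28 beside 0.07. Abcc9, the sulphonylurea receptor subunit of vascular potassium channels, had 380 CPM in contractile HFD cells and 228 CPM in contractile CD cells (0.74, 0.29 to 1.21). Its log2 ratio in the cells with a high Rgs5 share was 0.14 (-0.39 to 0.70). Pdgfrb, the receptor through which endothelial PDGF-B recruits pericytes, had 712 CPM in contractile HFD cells and 705 CPM in contractile CD cells (0.02, -0.26 to 0.30). Higd1b had 1093 and 1018 CPM (0.10, -0.13 to 0.33). Of vascular tone genes 14 of 40 were measured, with 2 higher (Rgs5 and Abcc9) and 1 lower (Pln), near the 11.5% and 4.36% of all measured genes. Of PDGF, Notch and angiopoietin genes 7 of 29 were measured and 1, the Notch target Hes1, was higher (626 CPM in HFD and 377 CPM in CD over all mesenchymal cells, 0.73).

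Genes of the fibrillar matrix were higher in HFD cells at both ends. Of 35 listed, 15 were measured over all mesenchymal cells, of which 9 were higher and 1, Dcn, lower, with a median of 0.74 beside 0.07 over all genes. The shares over all measured genes were 11.5% higher and 4.36% lower. Among contractile cells 8 of 9 were higher and 0 lower, with a median of 1.33 beside 0.10, and among fibroblast cells 9 of 11 were higher and 1 lower, with a median of 0.77 beside 0.19. All measured genes stood at 13.7% higher and 4.03% lower in contractile cells, and at 20.1% and 12.4% in fibroblast cells. Total-count scaling left the median over all mesenchymal cells at 0.63. Col1a1, Col3a1 and Dcn belong both to this list and to the 7 genes of the choice. Without them 7 of 12 genes were higher and 0 lower over all mesenchymal cells (median 0.71), 7 of 8 among contractile cells (1.12) and 7 of 8 among fibroblast cells (0.88), with 0 lower at either end. That count was added after seeing the data.

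Type III collagen (Col3a1, chr1:45311538-45349706, plus strand) had 459 CPM in contractile HFD cells and 147 CPM in contractile CD cells (1.65, 1.12 to 2.21), and 3780 CPM and 2245 CPM at the fibroblast end (0.75, 0.41 to 1.10). It was seen in 91 of 158 contractile HFD cells and 23 of 94 contractile CD cells, and after thinning in 67 (42.4%) and 15 (15.96%). The insulin-rich cells carried it in 0.0797% in HFD and 0.0151% in CD. Col3a1 is a gene of the choice, so its shares among the chosen cells are a description. The second chain of type I collagen, Col1a2, had 431 CPM and 171 CPM in contractile cells of HFD and CD (1.33, 0.84 to 1.86), and 4026 CPM and 1867 CPM in fibroblast cells (1.11, 0.75 to 1.48). Type VI collagen, which links cells to the fibrillar matrix, showed the same direction, with Col6a1 at 273 CPM in HFD and 97.8 CPM in CD in contractile cells (1.48, 0.83 to 2.19). Col1a1 stood almost wholly at the fibroblast end, with 1917 CPM in HFD and 881 CPM in CD (1.12, 0.60 to 1.67).

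Other genes of the list with higher levels in HFD, named after their values were seen, encode proteins that act on collagen. Pcolce, which enhances the trimming of procollagen, had 176 CPM in contractile HFD cells and 40.7 CPM in contractile CD cells (2.11, 1.15 to 3.23). Loxl2, a lysyl oxidase that cross-links collagen, had 207 and 65.2 CPM (1.67, 0.88 to 2.54). Of its UMIs over all HFD mesenchymal cells, 18.4% lay in 1 cell. Sparc, a collagen-binding protein abundant in pericytes, had 3525 and 1906 CPM (0.89, 0.73 to 1.04). The collagen chaperone Serpinh1 had 514 CPM in HFD and 307 CPM in CD over all mesenchymal cells (0.74). Of 21 basement membrane genes 6 were measured and 3 were higher (Col4a2, Col18a1 and Nid1), 0 lower, beside 11.5% and 4.36% of all measured genes. Their median was 0.49 beside 0.07 over all genes. In all kept barcodes other than the mesenchymal ones it was 0.65, and in endothelial barcodes 0.07. Col4a2 had 1024 CPM in contractile HFD cells and 578 CPM in contractile CD cells (0.82, 0.54 to 1.11), and nidogen 1 (Nid1), which ties laminin to type IV collagen, 258 and 89.6 CPM (1.52, 0.85 to 2.26).

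In the contractile cells with an Rgs5 share of at least 0.8 the log2 ratios were 1.01 (0.37 to 1.72) for Col1a2, 1.20 (0.32 to 2.21) for Col6a1 and 2.27 (1.09 to 3.76) for Nid1. The list median there was 0.78 over 5 genes without those of the choice, beside 0.27 over all genes. Col3a1 had a ratio of 0.96 (0.34 to 1.64), which is a description only, since a cell with few Acta2 UMIs needed other genes of the choice, Col3a1 among them, to be chosen. In other cells of the libraries the list medians were also above 0. The fibrillar matrix list had a median of 0.51 over 9 genes in endothelial barcodes (437 HFD and 263 CD), of 0.77 over 3 genes in macrophage barcodes (214 HFD and 153 CD), and of 0.73 over 15 genes in all kept barcodes other than the mesenchymal ones (11878 HFD and 9554 CD, endothelial and macrophage barcodes included), beside 0.74 in the mesenchymal cells. Whether matrix RNA outside the mesenchymal cells was their own or came as free RNA was not tested.

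Growth factor and matrix-remodelling genes moved in both directions. Connective tissue growth factor (Ctgf), a target of YAP and TGF-β, had 490 CPM in contractile HFD cells and 1063 CPM in contractile CD cells (-1.12, -1.39 to -0.84), and 580 CPM and 1364 CPM in fibroblast cells (-1.23, -1.88 to -0.61). It kept that direction in cells with a high Rgs5 share (-1.20, -1.59 to -0.81). Tissue plasminogen activator (Plat) had 235 and 534 CPM in contractile cells of HFD and CD (-1.18, -1.58 to -0.79). Igfbp5, which binds insulin-like growth factors, had 597 CPM in contractile HFD cells and 330 CPM in contractile CD cells (0.86, 0.49 to 1.24). Of 42 secreted growth factor genes 8 were measured, with 4 higher, among them Ptn, Gas6 and Igfbp5, and 1 lower (Gdf10). The list's median was 0.51 beside 0.07 over all genes. Of all measured genes 11.5% were higher and 4.36% lower. The TGF-β and YAP list had 6 of 30 genes measured, with Eng higher and Ctgf lower and a median of 0.24. Matrix turnover had 7 of 29 measured, with Plat lower and a median of -0.01. Single calls in lists this short do not set them apart from all measured genes.

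Cd36, Fabp4 and Fabp5, genes of fatty acid uptake and binding, were higher in contractile HFD cells. Cd36 (chr5:17781690-17888801, minus strand), a receptor that takes up fatty acids, had 184 CPM in contractile HFD cells and 36.7 CPM in contractile CD cells (2.33, 1.32 to 3.51), from 72 and 9 UMIs. It was seen in 41 of 158 HFD cells and 6 of 94 CD cells, and after thinning in 24 (15.2%) and 5 (5.32%), beside 0.212% and 0.0151% of insulin-rich cells. The fatty acid binding protein Fabp4 had 873 CPM in HFD and 387 CPM in CD (1.17, 0.84 to 1.52), and after thinning was seen in 73 (46.2%) and 22 (23.4%) contractile cells, beside 0.611% and 0.935% of insulin-rich cells. Fabp5 had 235 and 69.2 CPM (1.76, 1.01 to 2.60), but its log2 ratio over all mesenchymal cells was -0.02 with the insulin limit at 5%, and in the cells with a high Rgs5 share it was 0.68 (-0.11 to 1.56), an interval that spans 0. Of 38 lipid genes 10 were measured over all mesenchymal cells, with 3 higher (Cd36, Fabp4 and Fabp5) and 1 lower (Apoe), beside 11.5% and 4.36% of all measured genes, and a median of 0.18 beside 0.07. Lipoprotein lipase (Lpl), which frees fatty acids from circulating fat, had a ratio of -0.36 and was not called.

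Cd36 and Fabp4 are also known as endothelial genes. The endothelial barcodes had Cd36 at 114 CPM in HFD and 119 CPM in CD (-0.05, -0.33 to 0.23) and a log2 ratio of -0.21 for Fabp4. In all kept barcodes other than the mesenchymal ones the log2 ratio was 1.30 for Cd36 and 0.44 for Fabp4. At the fibroblast end Cd36 had 0 UMIs in both libraries, and endothelial marker UMIs summed to 265 CPM in HFD and 156 CPM in CD over all mesenchymal cells. In cells with an Rgs5 share of at least 0.8 the log2 ratio of Cd36 was 1.86 (0.66 to 3.36) and that of Fabp4 0.57 (0.19 to 0.97), beside a median of 0.27 over all genes. The part of endothelial RNA in the values of the mesenchymal cells was not tested.

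**Figure D4:**
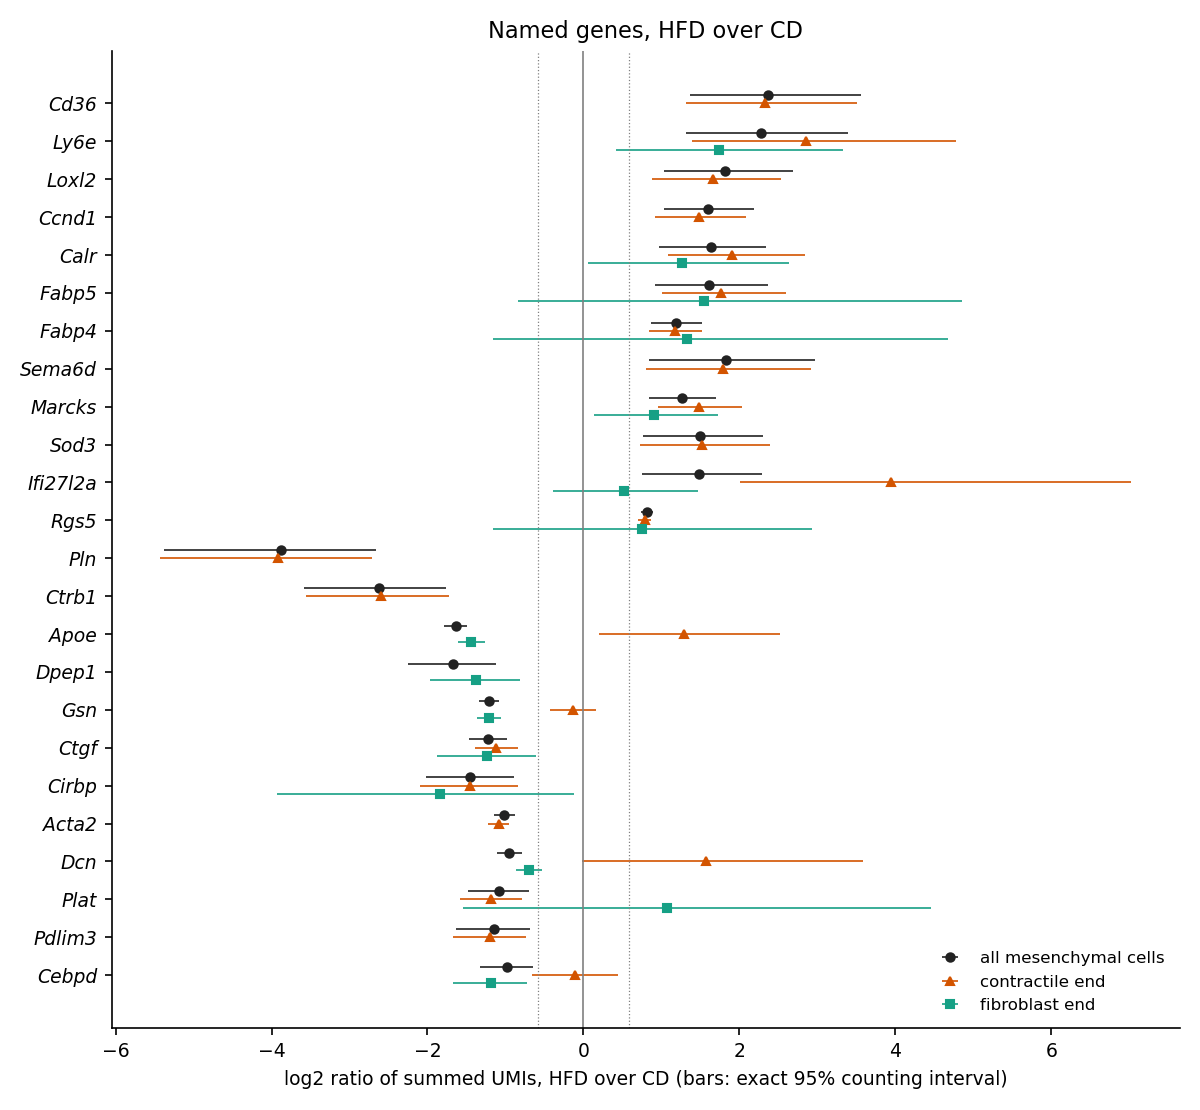
Log2 ratio of summed UMIs, HFD over CD (x axis), with exact 95% counting intervals, for the 12 highest and 12 lowest named genes; black circles are all mesenchymal cells, orange triangles contractile cells and green squares fibroblast cells, and dotted lines mark 1.5-fold. Among the black circles Cd36 (2.37) stands highest and Pln (-3.87) lowest, while among the triangles Ifi27l2a (3.94) stands highest and Pln (-3.92) lowest. Apoe lies on opposite sides of 0 at the contractile and fibroblast ends. A point is left out where a library had 0 UMIs.

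Interferon-responsive genes and the cell cycle gene Ccnd1 also stood among the 12 highest. Ly6e, an interferon-induced surface protein, had 117 CPM in contractile HFD cells and 16.3 CPM in contractile CD cells (2.85, 1.40 to 4.78), and 422 and 126 CPM at the fibroblast end (1.75, 0.42 to 3.33). Ifi27l2a had 125 and 8.15 CPM in contractile cells (3.94, 2.01 to 7.03), from 49 and 2 UMIs. Of 37 genes of antigen presentation and interferon response 10 were measured, with 3 higher (Ifi27, Bst2 and Ly6e) and 0 lower, beside 11.5% and 4.36% of all measured genes, and a median of 0.35 beside 0.07. The medians lay on opposite sides of 0 at the ends, a difference that was not tested. Among contractile cells 5 of 7 were higher and 0 lower, with a median of 0.63 beside 0.10 over all genes, and among fibroblast cells 0 of 4 were higher and 2 (H2-D1 and Ifitm1) lower, with a median of -0.71 beside 0.19. The shares over all measured genes were 13.7% higher and 4.03% lower in contractile cells, and 20.1% and 12.4% in fibroblast cells. Cyclin D1 (Ccnd1), which carries cells into S phase, had 365 and 130 CPM in contractile cells (1.49, 0.92 to 2.09). The cell cycle list as a whole had 7 of 34 genes measured, with 2 higher (Ccnd1 and Ccnd2) and 2 lower (Cdkn1a and Hmgb2). These stand beside 11.5% and 4.36% of all measured genes, and the list's median was -0.31 beside 0.07. Ccnd1 had a log2 ratio of 1.40 in endothelial barcodes and Ly6e one of 0.53.

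The other highest genes were Calr, Sema6d, Marcks and Sod3. Calreticulin (Calr), which folds glycoproteins and binds calcium in the endoplasmic reticulum, had 214 CPM in contractile HFD cells and 57.0 CPM in contractile CD cells (1.91, 1.08 to 2.84) and a log2 ratio of 0.99 in endothelial barcodes. The semaphorin Sema6d had 55 UMIs in contractile HFD cells and 10 in contractile CD cells, and the protein kinase C substrate Marcks 165 and 37. Extracellular superoxide dismutase (Sod3) had 186 and 65.2 CPM (1.52, 0.72 to 2.40). Of 37 genes of endoplasmic reticulum folding and collagen secretion 16 were measured, with 5 higher (Calr, Hsp90b1, Canx, Dnajb9 and Serpinh1) and 0 lower, beside 11.5% and 4.36% of all measured genes, and a median of 0.21 beside 0.07. Of 20 heat shock chaperones 12 were measured, with 4 higher (Dnaja1, Hspa1a, Hsp90aa1 and Dnajb1) and 0 lower, beside the same shares, and a median of 0.38. Hspa1a and its near-identical copy Hspa1b can share reads, so the value of either is uncertain.

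Most mitochondrially encoded genes were higher in HFD, and few of their nuclear partners were. Of 13 mitochondrially encoded genes 11 were higher and 0 lower, with a median of 0.70, whereas of 64 measured nuclear genes of the respiratory chain 2 were higher (Ndufa12 and Sdhb) and 1 lower (Ndufa4), with a median of 0.04. Over all measured genes 11.5% were higher and 4.36% lower. mt-Co3 had 15824 CPM in HFD and 7019 CPM in CD (1.17, 1.10 to 1.24), of which free RNA would bring an estimated 7551 CPM in HFD. The mitochondrially encoded genes had a median of 0.59 in endothelial barcodes, 1.08 in macrophage barcodes and 0.55 in all other kept barcodes. The median mitochondrial share was likewise higher in HFD mesenchymal cells (7.54% against 4.64%), and its part in other results was not tested.

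At the fibroblast end, with 21 HFD and 16 CD cells, the same collagens were higher while other abundant genes were lower. Apoe had 7068 CPM in HFD and 19154 CPM in CD (-1.44, -1.61 to -1.27), with a median of 43.9 UMIs per 10000 in HFD cells (0 to 331) and 131 in CD cells (0 to 617). Gelsolin (Gsn), which severs actin filaments, had 9495 CPM in HFD and 22028 CPM in CD (-1.21, -1.37 to -1.06), with medians of 103 (8.47 to 260) and 191 (55.8 to 505) UMIs per 10000. The ranges overlap for both genes. Dcn had 8844 and 14371 CPM (-0.70, -0.87 to -0.53). Dpep1 had 686 and 1783 CPM (-1.38, -1.96 to -0.82) and was seen in 11 of 21 HFD cells and all 16 CD cells. The transcription factor Cebpd had 1020 and 2329 CPM (-1.19, -1.68 to -0.72).

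Growth and chemokine genes of the fibroblast end moved both ways. Ptn had 2110 CPM in HFD and 839 CPM in CD (1.33, 0.80 to 1.88), and Gas6, a ligand of TAM receptors, 1284 and 378 CPM (1.77, 1.01 to 2.60). Of the Gas6 UMIs over all HFD mesenchymal cells, 24.7% lay in 1 cell. The chemokine Cxcl14 had 176 CPM in HFD and 1615 CPM in CD (-3.20, -4.32 to -2.24), but it was seen in 4 HFD and 7 CD cells, and 39.0% of its CD UMIs lay in 1 cell. Of 30 fibroblast genes 14 were measured over all mesenchymal cells, with 5 higher (Col1a1, Col1a2, Col3a1, Fstl1 and Pcolce) and 5 lower (Dcn, Gsn, Fbln1, Dpep1 and Cxcl14), and a median of 0.11. Of 38 genes of inflammation and complement 8 were measured, with Cxcl12 higher and Cxcl14 lower. Both lists stand beside 11.5% higher and 4.36% lower over all measured genes.

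**Figure D5:**
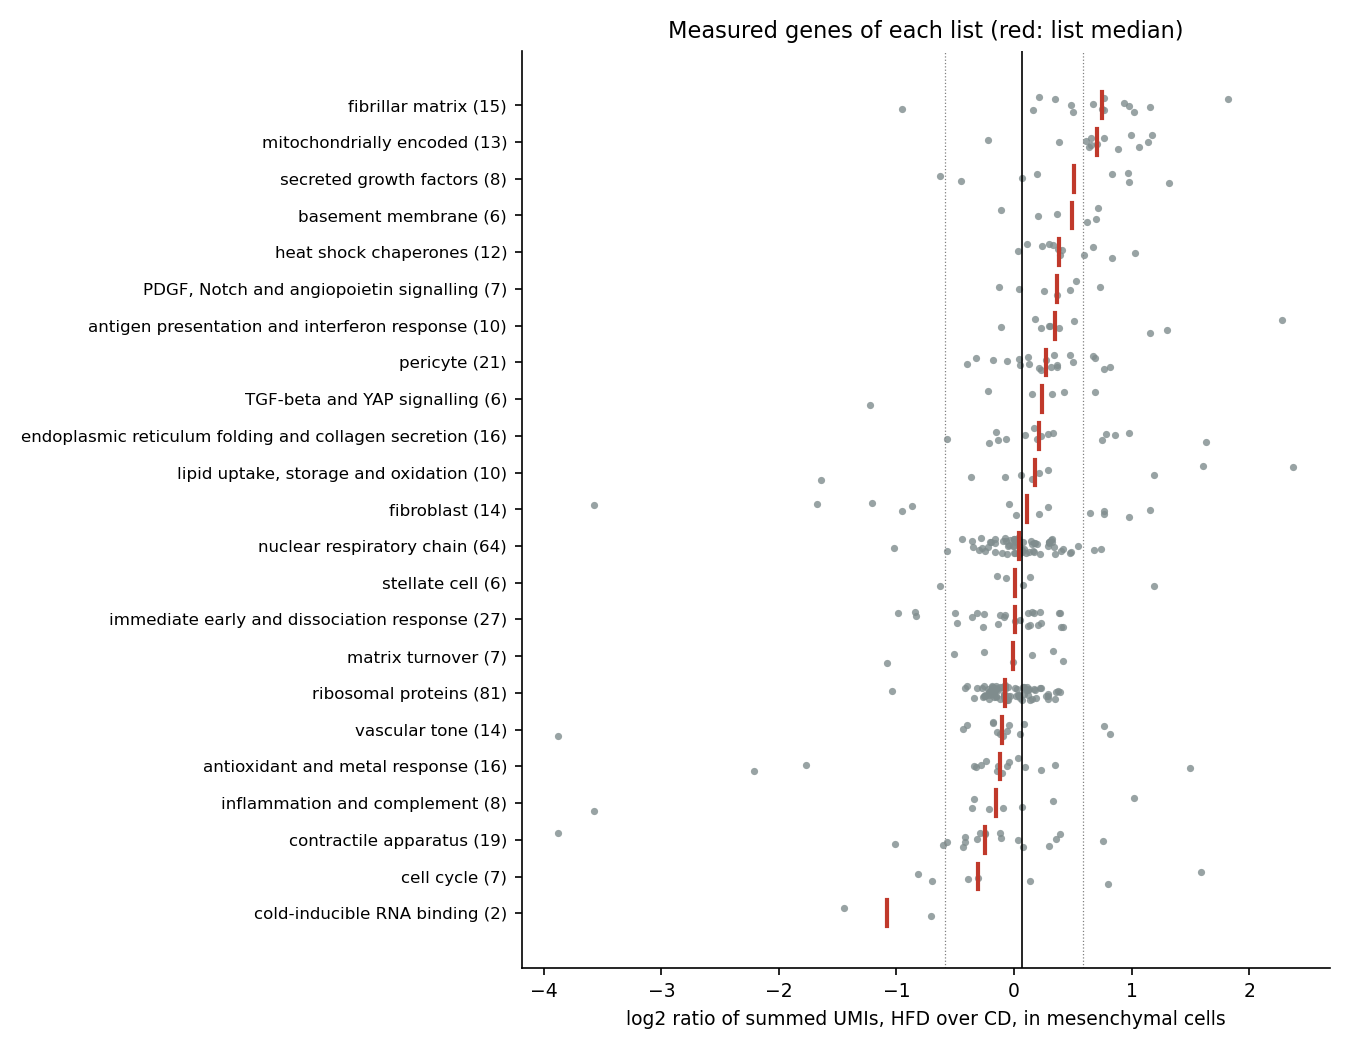
Log2 ratio of summed UMIs, HFD over CD, for each measured gene (grey points, 1 per gene, with a small random vertical offset) of 23 gene lists over all mesenchymal cells; red bars mark list medians, the black line the median of all measured genes (0.07) and dotted lines 1.5-fold, with the number of measured genes in brackets. Fibrillar matrix (0.74) and mitochondrially encoded genes (0.70) stand highest and cold-inducible RNA-binding genes (-1.08) lowest.

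Several lower genes had negative ratios in other cells of the libraries too. The cold-inducible RNA-binding genes Cirbp and Rbm3 had log2 ratios of -1.45 (-2.02 to -0.89) and -0.71 (-1.11 to -0.31) in mesenchymal cells. For Cirbp the ratio was -1.18 in endothelial, -1.32 in macrophage and -0.93 in all other kept barcodes. Mt1 and Mt2, metallothioneins that hold zinc and copper, had ratios of -1.77 and -2.21, from 372 against 1264 CPM and 36.7 against 170 CPM in HFD and CD. In CD 1 cell held 23.2% of the Mt1 UMIs, and 1 cell held 37.3% of the Mt2 UMIs. Free RNA would bring an estimated 472 CPM of Mt1 in CD, and all other kept barcodes had a ratio of -2.48 for Mt1. The acinar enzyme gene Ctrb1 (14 UMIs in HFD and 56 in CD) had ratios of -2.17 in endothelial and -4.25 in all other kept barcodes, and acinar markers in the mesenchymal cells summed to 168 CPM in HFD and 570 CPM in CD. Their part in other results was not tested.

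Of 36 immediate early and dissociation genes 27 were measured over all mesenchymal cells, with 0 higher and 3 lower (Ier2, Ier3 and Cebpd) and a median of 0.00 beside 0.07 over all genes. For this list and the others of this paragraph, 11.5% of all measured genes were higher and 4.36% lower. Among contractile cells 0 of 26 were higher and 2 lower, with a median of 0.18 beside 0.10. At the fibroblast end 0 of 6 were higher and 5 (Jun, Junb, Jund, Cebpd and Rhob) lower, with a median of -0.84 beside 0.19. All measured genes stood at 13.7% higher and 4.03% lower in contractile cells, and at 20.1% and 12.4% at the fibroblast end. Fos, the most abundant of them, had 3154 CPM in HFD and 3042 CPM in CD (0.05, -0.07 to 0.17). Of 93 ribosomal protein genes 81 were measured, with 0 higher and 1 lower and a median of -0.08. Of 34 antioxidant and metal response genes 16 were measured, with 1 higher (Sod3) and 2 lower (Mt1 and Mt2). Of 16 stellate cell genes 6 were measured, with Fabp4 higher and vimentin (Vim) lower, and of 25 cholesterol synthesis genes 0 reached 50 UMIs. The remaining gene among the 12 lowest was Pdlim3, a protein of the actin scaffold, with 66 and 95 UMIs in contractile cells of HFD and CD (-1.20, -1.68 to -0.73).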

How the data were processed

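The deposited matrices hold raw counts of UMIs per gene and barcode, without normalization, from 10x Genomics 3′ libraries. Per the submitters' processing notes the authors used Cell Ranger 6.0.1 with mm10. The matrices name version 3.0.2 per the file headers. All barcodes were listed, so no cells had been selected before deposit. Of the gene identifiers, 99.9% matched GENCODE M21 for GRCm38. The mesenchymal cells, gene lists and comparisons were chosen with earlier results of these data known.

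UMIs were summed over the cells of a library, and the sums were scaled by TMM (edgeR 4.0.16, R 4.3.3) with no gene-wise test. Ratios have exact conditional binomial intervals and shares Clopper-Pearson intervals. DESeq2 1.42.0 size factors were an alternative scaling. The ratios and intervals were tested on simulated data. Free RNA was profiled in barcodes of 10 to 100 UMIs. Doublet scores came from scrublet in scanpy 1.11.5 (Python 3.11.15). The highest scores, at 0.8% per 1000 kept barcodes, were removed only in an alternative.

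Named genes had at least 50 UMIs and 50 CPM in the higher library, under 20% of these UMIs from 1 cell and at least 3 times the level that free RNA would bring. Ribosomal, mitochondrially encoded and hormone genes and unnamed models were left out. Ranked by whichever bound of the interval lay closer to no difference, the 12 highest and 12 lowest were named, with the 7 genes of the choice and the members of each list with the most UMIs or the bound farthest from 1. Called list members, and genes picked from the lists for their roles, are also named and were chosen after their values were seen. Some genes that these rules would name are not reported here.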

Additional observations from a re-analysis of the deposited data

Results flagged for a closer look

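Apoe moved in opposite directions at the ends. Its log2 ratio of HFD over CD was 1.29 at the contractile end (0.20 to 2.53), from 35 and 9 UMIs, and -1.44 at the fibroblast end (-1.61 to -1.27), from 402 and 913 UMIs. With 1 library per diet the difference between the ends was not tested.

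Some barcodes met the rest of the choice and were left out by a single kind of limit, and they carry the same markers outside the cells compared here. The limits on hormone transcripts excluded the most, 43 HFD and 23 CD barcodes. Too few UMIs excluded 10 HFD and 12 CD barcodes. A mitochondrial share above 15% excluded 28 HFD and 4 CD barcodes. A Pecam1 or Cdh5 UMI excluded 8 HFD and 10 CD barcodes. Whether these barcodes differ from the cells kept was not tested.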

How the results depend on the processing

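No paired analysis was possible because each diet has 1 library, and for the same reason no replicate could be left out. With insulin under 5% the share of mesenchymal cells reversed to -0.235 points, the contractile share difference moved to -9.18, the higher genes to 35 and the genes of the contractile end to 140. With 3000 UMIs the contractile share difference was 16.6 points, with 106 higher and 15 lower genes, 171 genes of the contractile and 19 of the fibroblast end. Needing 4 of 7 markers gave 31 lower genes and 16 genes of the fibroblast end, and thinning to 1500 UMIs gave 30 and 29. Total-count scaling gave 103 lower genes, with 53.4% of calls higher, against 72.6% in the reported fit. A filter of 20 UMIs gave 606 higher and 287 lower genes, and no filter 3797 and 3306. The fibroblast end alone gave 34 higher and 21 lower genes. Settings chosen after seeing the data moved the lower genes to 25 (contractile cells without Pln) and 10 (Rgs5 share of at least 0.8). The share of calls that were higher was 87.6% with 3000 UMIs, 42.2% with insulin under 5%, 86.5% without Pln and 94.5% at a high Rgs5 share. Fabp5 reversed to -0.021 with insulin under 5%, Apoe to 1.29 in contractile cells and 1.14 without Pln, Dcn to 1.57 and 1.26 there, and Acta2 and Gsn to 0.39 and 0.30 at a high Rgs5 share. Apart from the settings that sum other cells, the cause was not tested. Limits of 2 markers, 800 UMIs or 25% mitochondrial UMIs, also chosen after seeing the data, moved none of these counts by 1.5 times. Leaving the 7 genes of the choice out of the gene lists, likewise chosen later, kept the 6 list medians it touches within the medians of their genes' interval bounds. The direction of all 24 genes that mark the ends held in all 264 alternative values. Counting error is widest at the fibroblast end, with 37 cells.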
